A study of Saccharomyces cerevisiae with 72 samples.

Results

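Yeast makes the fatty acids and phospholipids of its membranes with a small set of enzymes, and 10 genes of that set are described here: *ACC1*, *FAS1*, *FAS2*, *OLE1*, *INO1*, *CHO1*, *CHO2*, *OPI3*, *OPI1* and *INO2*. They were listed by systematic name and are 10 of the 6843 features of the count table. RNA was sequenced in 72 libraries, which are 3 replicate cultures of each of 24 conditions. In the *mad1Δ bub2Δ* test, polyploid cells (*mad1Δ bub2Δ*, labelled MB, with nocodazole at 30 °C) were compared with arrested cells (*MAD1 BUB2*, labelled WT, with nocodazole at 30 °C) and with cycling cells (*mad1Δ bub2Δ*, with the solvent DMSO at 30 °C). In the *cdc24-1 swe1Δ* test, polyploid cells (*cdc24-1 swe1Δ*, labelled CS, at 37 °C) were compared with arrested cells (*cdc24-1 swe1Δ cdc20-1*, labelled CCS, at 37 °C) and with cycling cells (*cdc24-1 swe1Δ* at 25 °C by the sample labels). Samples of the polyploid and arrested cultures were taken at 0, 4, 8, 12 and 16 h, and those of the cycling cultures at 0 and 16 h only, all in YPD, a rich glucose medium.

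Nocodazole, a drug that depolymerizes microtubules, was given at 15 μg/mL at the start, with a further 7.5 μg/mL every 4 h. By the study's methods *cdc24-1 swe1Δ* cells grew at a lower temperature and were moved to 37 °C as an experiment began. Changes from 0 h in the 37 °C courses therefore include this shift. Cells without *MAD1* and *BUB2* lack the checkpoints that would hold them in mitosis. Cells with the *cdc24-1* allele do not bud at 37 °C, and without *SWE1* the missing bud does not delay their nuclear cycle. Both polyploid populations therefore replicate DNA repeatedly. The added *cdc20-1* allele arrests cells in mitosis at 37 °C. Arrested cells enlarge without this gain in DNA. The labels give these codes and the alleles are from the study's strain list, in which all 4 strains carry mutant alleles of *ADE2*, *LEU2*, *URA3*, *TRP1*, *HIS3* and *CAN1*. The *mad1Δ* and *bub2Δ* alleles carry *URA3* and *HIS3* as markers, which the *MAD1 BUB2* strain does not have. The *cdc24-1 swe1Δ* strain was derived from S288C and crossed back to W303, and its *swe1Δ* allele carries kanMX. The other strains are listed as W303, and the *cdc20-1* strain is MATα while the others are MATa. Nocodazole-treated *mad1Δ bub2Δ* cultures also hold daughter cells that lack DNA, and RNA was taken from the whole culture. In such bulk RNA, fewer cells of a kind and less RNA per cell cannot be told apart.

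Acc1 makes malonyl-CoA, the first committed step of fatty acid synthesis, and Fas1 and Fas2 are the β and α subunits of the fatty acid synthase. Ole1 is the only fatty acid desaturase of this yeast. Ino1 makes inositol-3-phosphate from glucose-6-phosphate and is the limiting step of inositol synthesis. Cho1 makes phosphatidylserine, and Cho2 and Opi3 are the methyltransferases that turn phosphatidylethanolamine into phosphatidylcholine. The genes of phospholipid synthesis are switched on by the activator pair Ino2 and Ino4, which binds a promoter element known as UASINO, and are switched off by the repressor Opi1. Opi1 is held at the endoplasmic reticulum by phosphatidic acid and enters the nucleus when that lipid is used up, which is why cells repress these genes when inositol is plentiful.

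Library totals of estimated counts lay between 1597321 and 9987276, and ribosomal RNA took 0.730% to 47.7% of them. *BUB2* had 0 counts in all 21 *mad1Δ bub2Δ* libraries and 42 to 200 in the other 51, whereas *MAD1* still had 121 to 349 counts in those 21 libraries, against 190 to 1254. *SWE1* had 0 counts in 35 of the 36 libraries of the *cdc24-1 swe1Δ* test. The exception was the library labelled arrested *cdc24-1 swe1Δ cdc20-1*, 16 h, replicate 2, with 152 counts of *SWE1* and 3472 of *STE2*. *STE2* is a MATa gene that had 37 to 187 counts in the other 14 libraries of these arrested cells. *STE3*, a MATα gene, had 193 counts in the library, against 244 to 5795 in those 14 and 0 to 140 in the 57 of other cells. By *SWE1* and *STE2* this library goes against its label. The 16 h results of these arrested cells whose call or size depends on it are given with and without it. This holds for the 10 genes and for the wider gene list named further on. No replicate libraries had identical counts, and the chi-square per degree of freedom over genes was at least 3.88 in the 72 replicate pairs, above the 1 of sampling noise.

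All 10 genes were detected in every library, with at least 30 counts, and all 10 passed the filter on low counts. On the TPM scale, which divides by gene length, the median over the 72 libraries was highest for *OLE1* (566 TPM, range 125 to 2266). It was 363 for *OPI3*, 268 for *FAS2*, 186 for *FAS1*, 171 for *CHO1*, 158 for *CHO2* and 122 for *ACC1*. The regulators were lower, with 42.4 for *OPI1* and 29.8 for *INO2*. *INO1* had the lowest median, 29.6 TPM, and the widest range, from 1.37 to 323 TPM, which is 236-fold. The range of the other 9 genes was between 3.55-fold (*FAS1*) and 18.1-fold (*OLE1*), and all of these ranges overlapped their neighbours in the order.

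Within a gene, values are given below as CPM, counts per 1000000 counts of a library after TMM normalization, a scaling that sets the bulk of genes equal between libraries. Changes are log2 fold changes with standard errors from edgeR's quasi-likelihood test over all 72 libraries, and p-values are adjusted by the Benjamini-Hochberg method over the 6148 genes tested. The changes of 1 kind of cell all share its 0 h libraries, and the comparisons with arrested and with cycling cells share the polyploid libraries. From 0 to 16 h, 7 of the 10 genes changed in polyploid *mad1Δ bub2Δ* cells (2 up, 5 down), where 44.7% of all genes tested were called. In arrested *MAD1 BUB2* cells 7 changed (2 up, 5 down) against 57.8% of all genes, and in cycling *mad1Δ bub2Δ* cells 5 changed (1 up, 4 down) against 37.0%. Of the *cdc24-1 swe1Δ* courses, 4 genes changed in polyploid cells (2 up, 2 down) against 49.6% of all genes, 3 in arrested cells (2 up, 1 down) against 51.3%, and 2 in cycling cells (1 up, 1 down) against 14.5%. These shares lay on both sides of the background of all genes. Leaving out culture 1 took the count in polyploid *mad1Δ bub2Δ* cells from 7 to 4, leaving out culture 2 took that in polyploid *cdc24-1 swe1Δ* cells from 4 to 2, and the 2 calls in cycling *cdc24-1 swe1Δ* cells were lost without any 1 culture. Without the library that goes against its label the count in arrested *cdc24-1 swe1Δ cdc20-1* cells was again 3, but 1 up (*INO2*) and 2 down (*FAS1* and *CHO1*).

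These directions depend on the scale. On the deposited TPM scale, which is not corrected for the make-up of the RNA, most called genes of the whole set went up over 16 h in each polyploid and arrested course, for example 3896 up and 413 down in arrested *MAD1 BUB2* cells, against 1961 up and 1592 down by edgeR. On that scale the members' calls were 2 up and 2 down in polyploid *mad1Δ bub2Δ* cells, 3 up and 0 down in arrested *MAD1 BUB2* cells, where all 5 falls lost their call, and 0 up and 5 down in cycling *mad1Δ bub2Δ* cells. They were 7 up and 0 down in both polyploid *cdc24-1 swe1Δ* and arrested *cdc24-1 swe1Δ cdc20-1* cells, and 0 in cycling *cdc24-1 swe1Δ* cells, where edgeR with other size factors or without ribosomal RNA gave 0 up and 1 down. Directions given below are those of the edgeR fit, which are relative to the bulk of genes.

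**Figure D1:**
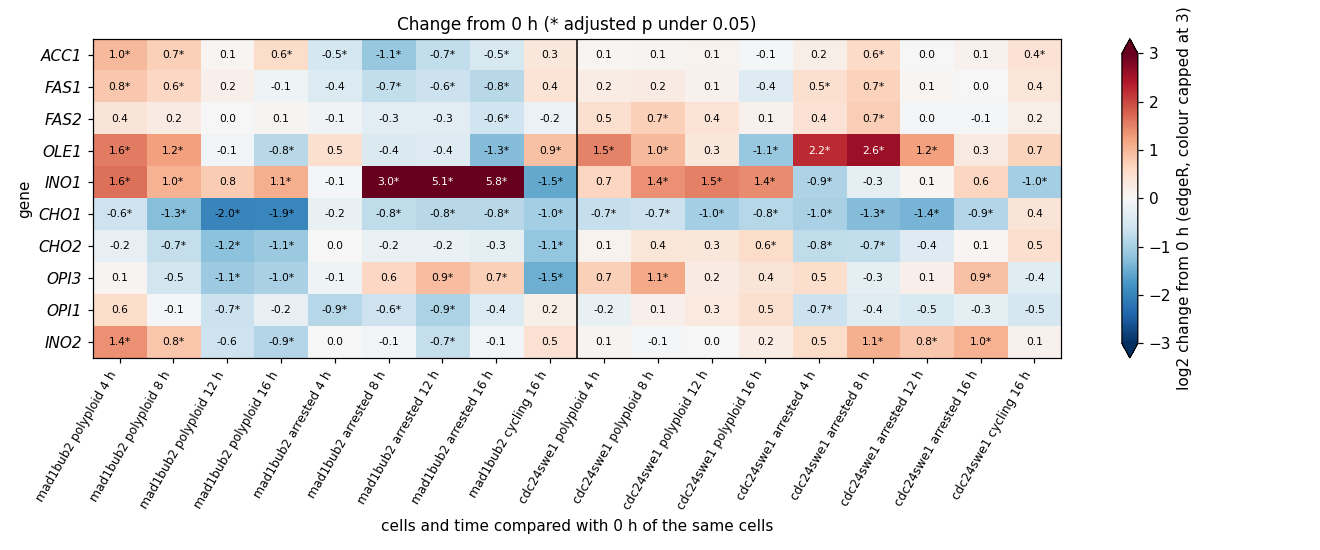
Log2 changes from 0 h of the 10 genes (rows) in each kind of cell and time (columns), from the edgeR fit. Asterisks mark adjusted p under 0.05, and the vertical line separates the 2 tests. The row of *INO1* holds the largest rise, 5.76 in arrested *MAD1 BUB2* cells at 16 h, and *CHO1* is below 0 in every column but the last, cycling *cdc24-1 swe1Δ* cells (0.38).

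*INO1* (YJL153C, chromosome X, 134332 to 135933, minus strand of R64) rose 54.1-fold in *MAD1 BUB2* cells arrested in nocodazole. Its level in the 3 cultures was 9.01, 6.05 and 8.66 CPM at 0 h and still 5.66, 8.53 and 8.60 CPM at 4 h. It then reached 58.6, 65.5 and 66.4 CPM at 8 h, 279, 222 and 314 CPM at 12 h, and 421, 425 and 436 CPM at 16 h. All libraries from 8 h on lay above all those of 0 and 4 h, and the libraries of 8, 12 and 16 h did not overlap each other. The log2 change was -0.05 (SE 0.40, adjusted p = 0.94) at 4 h, 3.01 (SE 0.37, adjusted p = 8.8e-10) at 8 h, 5.11 (SE 0.39) at 12 h and 5.76 (SE 0.39, adjusted p = 2.9e-18) at 16 h. With ribosomal RNA removed the change at 16 h was 5.77, and on the deposited TPM scale it was 6.18. Ribosomal RNA was 0.744% to 0.956% of the counts of these libraries at 0 h and 2.66% to 4.90% at 16 h.

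*INO1* did not pass the test at 16 h in cells that the *cdc20-1* allele arrested at 37 °C. There it stood at 35.6, 32.9 and 34.2 CPM at 0 h, 12.9, 24.3 and 17.0 CPM at 4 h and 40.9, 53.7 and 66.3 CPM at 16 h, the middle of these last values being the library that goes against its label. The fall at 4 h had a log2 change of -0.93 (SE 0.34, adjusted p = 0.022), but was no longer called without culture 1 (-0.69, adjusted p = 0.20) or culture 3 (-0.89, adjusted p = 0.10). The change at 16 h was 0.64 (SE 0.32, adjusted p = 0.092), and 0.67 (adjusted p = 0.12) without the library that goes against its label. On the deposited TPM scale it was 1.18 and was called. The difference between the 2 arrested courses at 16 h, a comparison added after the values were seen, was 5.12 (SE 0.49, adjusted p = 7.1e-12), which is 34.7-fold, and 5.09 without that library. The 2 arrests differ in drug, temperature, strain and mating type, and these cannot be told apart.

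In both polyploid populations *INO1* rose by a few fold. In polyploid *mad1Δ bub2Δ* cells it was 60.8, 72.2 and 39.7 CPM at 0 h and 137, 132 and 102 CPM at 16 h, with no overlap (log2 change 1.10, SE 0.32, adjusted p = 0.0036). At 4 h the 3 cultures had 96.5, 288 and 157 CPM (1.65, SE 0.32, adjusted p = 1.2e-04). In polyploid *cdc24-1 swe1Δ* cells it was 36.6, 41.0 and 33.1 CPM at 0 h and 88.9, 115 and 91.7 CPM at 16 h, again with no overlap (1.42, SE 0.32, adjusted p = 2.5e-04). At 4 h 1 of these cultures, replicate 3, had 113 CPM while the others had 26.2 and 34.6 CPM.

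In cycling cells *INO1* went the other way. It fell from 25.8, 23.0 and 21.6 CPM to 10.0, 5.12 and 8.92 CPM in *mad1Δ bub2Δ* cells (-1.54, SE 0.36, adjusted p = 9.2e-04). In *cdc24-1 swe1Δ* cells it went from 30.4, 36.3 and 36.4 CPM to 17.6, 20.7 and 12.0 CPM (-1.02, SE 0.34, adjusted p = 0.034), a call that was lost when any 1 of the 3 cultures was left out (-1.14 to -0.80, adjusted p from 0.064 to 0.25). The change of polyploid cells minus that of cycling cells of the same genotype, also added after the values were seen, was 2.64 (SE 0.48, adjusted p = 2.0e-05) in the *mad1Δ bub2Δ* test and 2.44 (SE 0.47, adjusted p = 4.9e-05) in the *cdc24-1 swe1Δ* test. That is 6.24-fold and 5.41-fold. Of the 10 genes, 4 differed in this comparison in the *mad1Δ bub2Δ* test (41.8% of all genes were called) and 5 in the *cdc24-1 swe1Δ* test (38.0% of all genes). In the latter *FAS1* differed by -0.75 (SE 0.27, adjusted p = 0.023; -0.22, adjusted p = 0.56, on the TPM scale), *CHO1* by -1.23 and *OPI1* by 0.96 (SE 0.34, adjusted p = 0.021), beside *INO1* and *OLE1*. The splits of these calls were 1 up and 3 down and 2 up and 3 down, or 5 up and 0 down and 3 up and 2 down on the TPM scale.

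**Figure D2:**
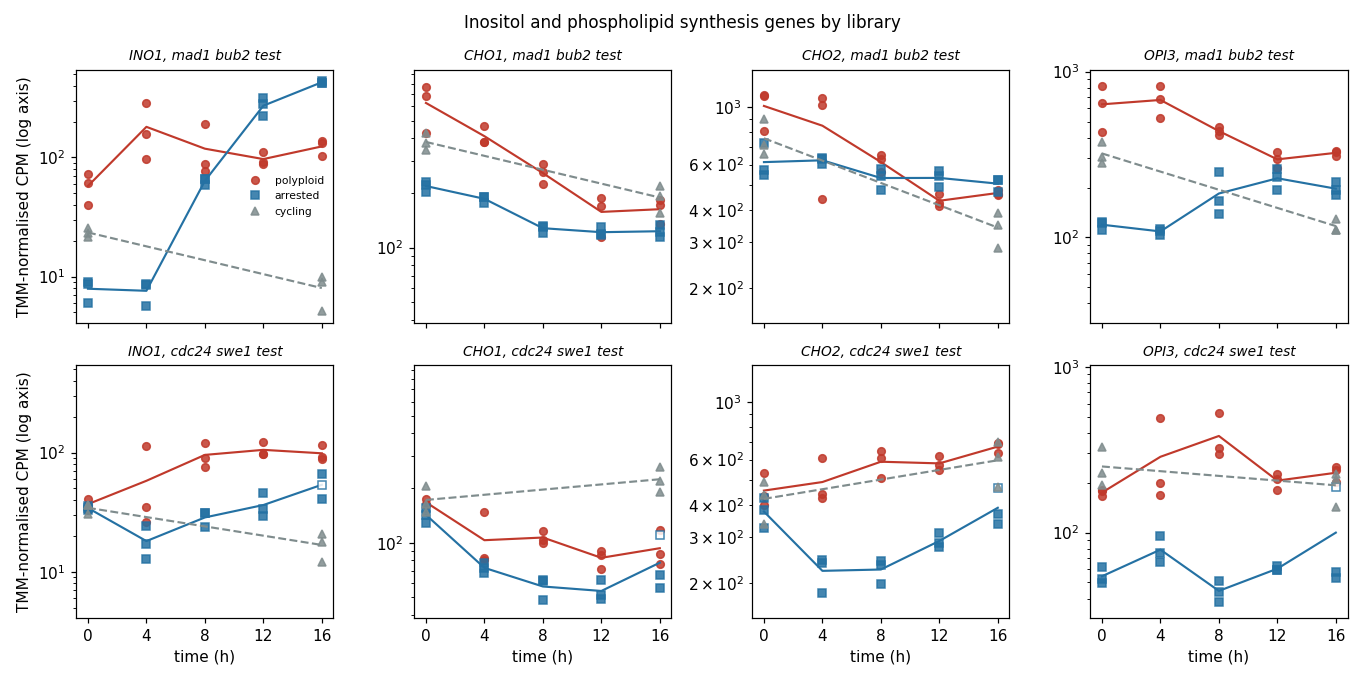
CPM on a log axis against time for *INO1*, *CHO1*, *CHO2* and *OPI3* in the *mad1Δ bub2Δ* test (top) and the *cdc24-1 swe1Δ* test (bottom). Points are libraries, lines join means of 3 cultures, and the open square is the library that goes against its label. *INO1* in arrested *MAD1 BUB2* cells runs from 7.91 CPM on average at 0 h to 427 CPM at 16 h.

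The promoters of *INO1*, *CHO1*, *CHO2* and *OPI3* are shown because these genes were 4 of the 5 members called higher at 0 h, as described next, and because the known activator Ino2 acts through a short element whose core reads CATGTG. Each sequence is the 300 bases before the start codon, 5′ to 3′ on the gene's strand, from the RefSeq R64 assembly. Capitals mark CATGTG or its reverse complement CACATG.
INO1 (chrX:135934-136233, minus strand): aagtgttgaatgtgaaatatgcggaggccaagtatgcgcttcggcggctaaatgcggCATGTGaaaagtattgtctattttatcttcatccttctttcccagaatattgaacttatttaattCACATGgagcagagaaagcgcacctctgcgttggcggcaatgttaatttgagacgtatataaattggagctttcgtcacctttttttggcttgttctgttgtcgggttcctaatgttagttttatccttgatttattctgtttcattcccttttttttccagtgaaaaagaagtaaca
CHO1 (chrV:208475-208774, minus strand): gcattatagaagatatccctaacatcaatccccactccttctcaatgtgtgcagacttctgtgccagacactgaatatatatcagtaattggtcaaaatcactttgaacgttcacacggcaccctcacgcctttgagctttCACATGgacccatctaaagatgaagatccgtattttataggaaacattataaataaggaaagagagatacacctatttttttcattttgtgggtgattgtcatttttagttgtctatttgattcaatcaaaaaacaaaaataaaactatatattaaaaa
CHO2 (chrVII:802140-802439, plus strand): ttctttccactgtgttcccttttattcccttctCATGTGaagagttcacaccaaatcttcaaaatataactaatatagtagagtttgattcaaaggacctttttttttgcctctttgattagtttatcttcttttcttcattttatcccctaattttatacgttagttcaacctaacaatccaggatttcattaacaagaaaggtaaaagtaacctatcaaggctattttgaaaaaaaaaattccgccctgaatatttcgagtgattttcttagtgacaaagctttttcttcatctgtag
OPI3 (chrX:572936-573235, minus strand): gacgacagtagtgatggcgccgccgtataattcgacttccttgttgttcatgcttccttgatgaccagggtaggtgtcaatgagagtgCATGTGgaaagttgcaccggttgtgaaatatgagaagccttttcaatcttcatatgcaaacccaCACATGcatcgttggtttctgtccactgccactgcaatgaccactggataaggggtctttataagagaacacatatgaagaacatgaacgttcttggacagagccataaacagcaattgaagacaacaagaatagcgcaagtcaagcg

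*INO1* held 2 matches, beginning 178 and 243 bases before the start codon, and *OPI3* held 2, at 148 and 212 bases. *CHO1* held 1 match at 159 bases and *CHO2* held 1 at 267 bases. Of the other members, *FAS2* held 1 match and *INO2* held 2 that overlap each other, at 144 and 146 bases. *ACC1*, *FAS1* and *OLE1* held none in this window. The motif was in 12 of 46 promoters (26.1%) of a wider list of lipid genes, and in 429 of 6001 protein-coding genes with such a window (7.15%). A match describes the letters of the window and is no evidence of binding in these cells.

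At 0 h *INO1*, *CHO1*, *CHO2*, *OPI3* and *OPI1* were higher in the *mad1Δ bub2Δ* cultures that were to become polyploid than in the *MAD1 BUB2* cultures used for arrest. In this comparison 5 of the 10 genes were higher and 0 were lower, whereas 9.01% of all genes differed in either direction. *INO1* was 7.29-fold higher (log2 difference 2.87, SE 0.37, adjusted p = 1.6e-07) by the values given above, with no overlap.

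*OPI3* (YJR073C, chromosome X, 572315 to 572935, minus strand) was 822, 649.7 and 433 CPM against 124, 111 and 123 CPM, or 5.32-fold higher (2.41, SE 0.30, adjusted p = 6.5e-08). *CHO1* (YER026C, chromosome V, 207644 to 208474, minus strand) was 765, 687 and 428 CPM against 203, 221 and 231 CPM, or 2.87-fold higher (1.52, SE 0.20, adjusted p = 2.1e-07). In each of these genes every *mad1Δ bub2Δ* library lay above every *MAD1 BUB2* library. *CHO2* was 1.65-fold higher (0.72, SE 0.19, adjusted p = 0.010) and *OPI1* 1.64-fold higher (0.72, SE 0.24, adjusted p = 0.048). The *CHO2* call was lost without arrested culture 1 or 3 or polyploid culture 2 (adjusted p from 0.072 to 0.11), and the *OPI1* call in 5 of the 6 fits that left out 1 culture (adjusted p from 0.056 to 0.20). The count of 5 fell to 3 without arrested culture 1 or 3 or polyploid culture 2.

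The *mad1Δ bub2Δ* cultures that were to cycle in DMSO had intermediate levels at 0 h. *INO1* was 2.45-fold lower there than in the cultures of the same genotype that were to become polyploid (log2 difference of polyploid minus cycling 1.29, SE 0.33, adjusted p = 0.0034). *OPI3* differed by 0.98 (SE 0.29, adjusted p = 0.011), with 307, 281 and 375 CPM in the cycling cultures, and *CHO1* by 0.71 (SE 0.19, adjusted p = 0.0064), with 426, 345 and 375 CPM. *FAS2* was also higher in the polyploid set, by 0.54 (SE 0.19, adjusted p = 0.045). These 4 of 10 genes stood beside 16.4% of all genes in this comparison, which was added after the values were seen. The same comparison of *cdc24-1 swe1Δ* cultures at 0 h, also of 1 genotype, called 0 of the 10 genes and 0 of the 6148 tested (0%) by edgeR, with 0 of the 10 also at an unadjusted p under 0.05 and by DESeq2. Changes from 0 h in the *mad1Δ bub2Δ* test therefore start from different levels.

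At 0 h in the *cdc24-1 swe1Δ* test, 1 of the 10 genes differed between polyploid and arrested strains, against 9.16% of all genes. It was *OPI3*, at 178, 165 and 179.5 CPM in *cdc24-1 swe1Δ* cells and 61.7, 52.2 and 49.5 CPM in *cdc24-1 swe1Δ cdc20-1* cells (1.68, SE 0.30, adjusted p = 2.6e-05). *INO1* and *CHO1* differed by 0.11 (SE 0.32) and 0.23 (SE 0.20), with adjusted p of 0.90 and 0.55.

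**Figure D3:**
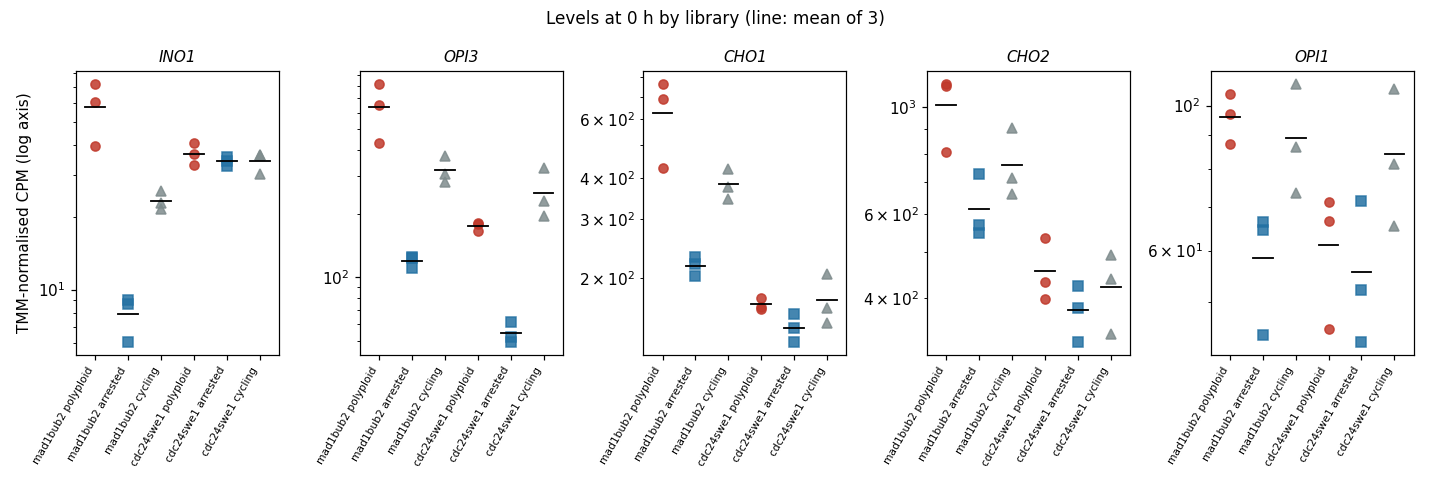
CPM at 0 h on a log axis for *INO1*, *OPI3*, *CHO1*, *CHO2* and *OPI1* in the 6 sets of cultures. Points are libraries and bars are means of 3. The *mad1Δ bub2Δ* cells lie above the *MAD1 BUB2* cells, labelled mad1bub2 arrested, in the first 3 panels, with 60.8, 72.2 and 39.7 CPM of *INO1* against 9.01, 6.05 and 8.66 CPM.

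*CHO1*, the phosphatidylserine synthase gene, fell in polyploid and arrested cells of both tests by the count fit. In polyploid *mad1Δ bub2Δ* cells it ended at 182, 172 and 134 CPM after 16 h, a 3.86-fold fall (-1.95, SE 0.20, adjusted p = 1.4e-11). In arrested *MAD1 BUB2* cells it ended at 122, 114 and 133 CPM (-0.83, SE 0.20, adjusted p = 3.3e-04). Cycling *mad1Δ bub2Δ* cells also lost *CHO1* RNA, to 193, 218 and 155 CPM (-1.02, SE 0.20, adjusted p = 1.1e-04). The start and end libraries did not overlap in any of these 3 kinds of cells. On the deposited TPM scale the falls in polyploid and cycling cells were still called, and the change in arrested cells was -0.04 (adjusted p = 0.87).

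The fall of *CHO1* in polyploid *mad1Δ bub2Δ* cells exceeded that of arrested cells by 1.12 (SE 0.28, adjusted p = 0.0022). It exceeded that of cycling cells by 0.93 (SE 0.28, adjusted p = 0.0053), which became a difference of 0.00 on the deposited TPM scale. Polyploid *cdc24-1 swe1Δ* cells went from 162, 164 and 175 CPM of *CHO1* to 86.1, 76.5 and 117 CPM (-0.85, SE 0.20, adjusted p = 3.5e-04). In the arrested cells of this test it went from 129, 156 and 142 CPM to 48.1 to 62.6 CPM at 8 h (-1.31, SE 0.20, adjusted p = 2.0e-07). At 16 h the arrested libraries had 56.3, 109.9 and 66.5 CPM, of which the second goes against its label (-0.87, SE 0.20, adjusted p = 2.1e-04), and without it the change was -1.19 (adjusted p = 4.1e-06). On the TPM scale the 16 h changes of this test were -0.25 (adjusted p = 0.30) in polyploid and -0.29 (adjusted p = 0.23) in arrested cells. Cycling *cdc24-1 swe1Δ* cells at 25 °C ended at 219, 261 and 191 CPM (0.38, SE 0.20, adjusted p = 0.20).

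Both methyltransferase genes fell in the *mad1Δ bub2Δ* genotype, in polyploid and in cycling cells. *CHO2* (YGR157W, chromosome VII, 802440 to 805049, plus strand) went from 1118, 1108 and 808 CPM to 459, 476 and 462 CPM in polyploid cells (-1.12, SE 0.19, adjusted p = 3.1e-06). In cycling cells it went from 660.3, 711 and 903 CPM to 286, 351 and 389 CPM (-1.15, SE 0.19, adjusted p = 1.9e-05). *OPI3* fell to 334, 329 and 308 CPM in polyploid cells (-0.97, SE 0.29, adjusted p = 0.0044; adjusted p = 0.083 without culture 1, and -0.49 with adjusted p = 0.12 on the TPM scale) and to 129.9, 111 and 110.3 CPM in cycling cells (-1.46, SE 0.29, adjusted p = 1.6e-04). Between polyploid and cycling cells these changes differed by 0.03 (SE 0.27, adjusted p = 0.95) for *CHO2* and 0.48 (SE 0.40, adjusted p = 0.35) for *OPI3*, or by 0.87 and 1.44, both called, on the TPM scale.

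In arrested *MAD1 BUB2* cells neither gene fell past the test. *CHO2* changed there by -0.28 (SE 0.19, adjusted p = 0.21). *OPI3* went from 124, 111 and 123 CPM to 217, 193 and 180.3 CPM, without overlap (0.72, SE 0.29, adjusted p = 0.029), a call that was lost when any 1 of the 3 cultures was left out (0.66 to 0.80, adjusted p from 0.065 to 0.13). The change of *OPI3* in polyploid cells was lower than that in arrested cells by 1.69 (SE 0.41, adjusted p = 0.0016), and that of *CHO2* by 0.84 (SE 0.27, adjusted p = 0.018). The *CHO2* difference was no longer called without arrested culture 1 or 3 or polyploid culture 2 (adjusted p from 0.062 to 0.11).

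*OPI3* rose in polyploid *cdc24-1 swe1Δ* cells, to 323, 528 and 296 CPM at 8 h (1.13, SE 0.29, adjusted p = 0.0018; 0.80 and adjusted p = 0.081 without culture 2). At 16 h it had 202, 239 and 247 CPM (0.39, SE 0.29, adjusted p = 0.25), or a called 0.99 on the TPM scale. In the arrested cells it was between 38.2 and 94.8 CPM in the 12 libraries up to 12 h. At 16 h it was 53.4 and 58.2 CPM in 2 libraries and 188 CPM in the library that goes against its label. The change over 16 h was 0.88 (SE 0.29, adjusted p = 0.010) with that library and 0.07 (adjusted p = 0.86) without it. *CHO2* rose in polyploid *cdc24-1 swe1Δ* cells from 534, 399 and 433 CPM to 638, 697 and 687 CPM (0.56, SE 0.19, adjusted p = 0.011), but not beyond the threshold without culture 2 or 3 (adjusted p of 0.13 and 0.091). At 4 h it fell in arrested cells to 246, 183 and 239 CPM (-0.76, SE 0.19, adjusted p = 9.4e-04), or -0.56 (adjusted p = 0.099) on the TPM scale.

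*OLE1* (YGL055W, chromosome VII, 398628 to 400160, plus strand) rose early in 3 of the 4 treated courses and, in both polyploid courses, ended below its 0 h level. In arrested *cdc24-1 swe1Δ cdc20-1* cells it went from 493, 694 and 475 CPM to 2640.0, 2524 and 2679.7 CPM at 4 h and 3694, 3223 and 2893 CPM at 8 h. That was a 5.90-fold rise at 8 h (2.56, SE 0.35, adjusted p = 1.5e-08). The libraries of 12 h, at 1484, 1342 and 1073 CPM, were still above the start (1.23, SE 0.34), and those of 16 h were at 474, 1245 and 304 CPM, the middle one being the library that goes against its label (0.28, SE 0.33, adjusted p = 0.50; -0.47, adjusted p = 0.24, without that library).

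Polyploid *mad1Δ bub2Δ* cells went from 1109, 641 and 1248 CPM of *OLE1* to 3406, 2325 and 3152 CPM at 4 h (1.57, SE 0.34, adjusted p = 5.6e-04). They ended at 501, 717 and 455 CPM at 16 h (-0.84, SE 0.33, adjusted p = 0.036), a fall that was lost without culture 1 (-0.69, adjusted p = 0.20) or culture 3 (-0.52, adjusted p = 0.35). Polyploid *cdc24-1 swe1Δ* cells followed the same course, from 613, 695 and 821 CPM to 2256, 2407 and 1275 CPM at 4 h (1.48, SE 0.34, adjusted p = 5.8e-04) and to 382, 168 and 415 CPM at 16 h (-1.14, SE 0.34, adjusted p = 0.0041). Without culture 2 the last change was -0.84 (adjusted p = 0.10), and on the TPM scale the 16 h changes were -0.41 (adjusted p = 0.31) and -0.62 (adjusted p = 0.095). No 4 h library overlapped the 0 h libraries of its own cells in these 3 courses.

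Arrested *MAD1 BUB2* cells lacked a called early rise of *OLE1*, with 1858, 1586 and 1502 CPM at 4 h after 1047, 1338 and 1128 CPM at 0 h (0.49, SE 0.33, adjusted p = 0.25), although these libraries did not overlap either. At 16 h they had 473, 509.5 and 454 CPM (-1.29, SE 0.34, adjusted p = 9.6e-04). On the deposited TPM scale the change at 4 h was 0.86 and was called, and that at 16 h was -0.49 and was not (adjusted p = 0.17). At 8 h the change in polyploid cells exceeded that in arrested cells by 1.66 (SE 0.47, adjusted p = 0.0041) in the *mad1Δ bub2Δ* test, or by 0.89 (adjusted p = 0.097) on the TPM scale. It was below that in arrested cells by 1.59 (SE 0.47, adjusted p = 0.0095) in the *cdc24-1 swe1Δ* test, which became adjusted p = 0.063 without arrested culture 1.

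*OLE1* rose in cycling *mad1Δ bub2Δ* cells. The cultures went from 706, 337 and 1257 CPM to 1815, 1087 and 1336 CPM (0.88, SE 0.33, adjusted p = 0.033; not called without culture 1 or 2, adjusted p of 0.27 and 0.22), and the 2 sets of libraries overlapped. On the TPM scale the change was 0.59 (adjusted p = 0.15). Cycling *cdc24-1 swe1Δ* cultures went from 666, 728 and 1005 CPM to 1553, 1154 and 1107 CPM (0.67, SE 0.33, adjusted p = 0.18), without overlap. Against cycling cells, the 16 h change of polyploid cells was lower by 1.72 (SE 0.47, adjusted p = 0.0027) in the *mad1Δ bub2Δ* test (1.00 and adjusted p = 0.064 on the TPM scale) and by 1.81 (SE 0.47, adjusted p = 0.0021) in the *cdc24-1 swe1Δ* test. Over 16 h, 1 of the 10 genes differed in its change between polyploid and arrested cells of the *cdc24-1 swe1Δ* test, against 12.5% of all genes, and this was *OLE1* (-1.43, SE 0.47, adjusted p = 0.037). Without the library that goes against its label the difference was -0.66 (adjusted p = 0.34), and 0 of the 10 genes were called, as was the case without arrested culture 1 or polyploid culture 2.

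**Figure D4:**
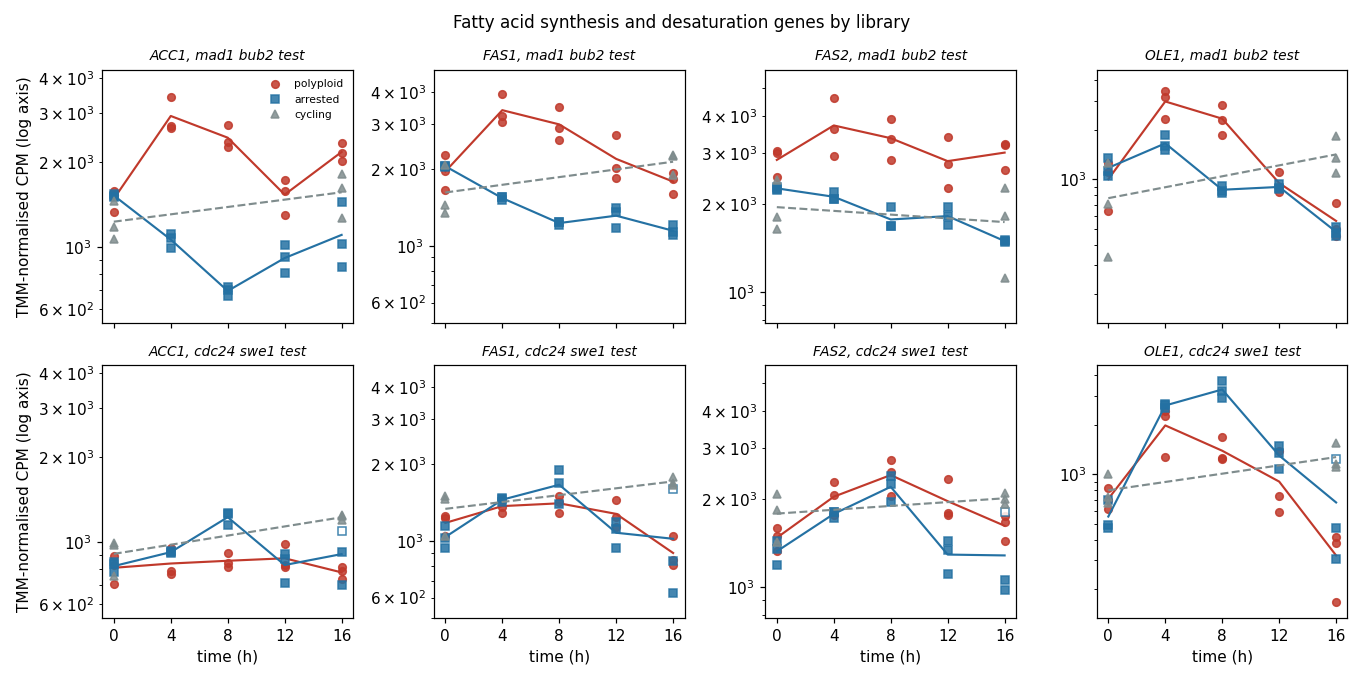
CPM on a log axis against time for *ACC1*, *FAS1*, *FAS2* and *OLE1* in both tests, drawn as for the phospholipid genes. In the *mad1Δ bub2Δ* test the polyploid and arrested lines of *ACC1* part at 4 h, with 2700.4, 2654 and 3425 CPM against 988, 1114 and 1078 CPM.

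*ACC1* (YNR016C, chromosome XIV, 654673 to 661374, minus strand) and *FAS1* (YKL182W, chromosome XI, 100671 to 106826, plus strand) rose in polyploid and fell in arrested cells of the *mad1Δ bub2Δ* test at 8 h. *ACC1* started at 1586, 1332 and 1529 CPM in polyploid and 1509, 1543 and 1516 CPM in arrested cultures (difference -0.04, SE 0.15). At 8 h it was 2264, 2354 and 2727 CPM in polyploid cells (0.72, SE 0.16, adjusted p = 2.5e-04) and 669, 719 and 698 CPM in arrested cells (-1.13, SE 0.16, adjusted p = 2.0e-08). The changes differed by 1.85 (SE 0.22, adjusted p = 1.9e-09), or 3.61-fold, and by 1.05 (adjusted p = 7.4e-04) on the TPM scale.

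*FAS1* likewise stood at 2581, 2885 and 3485 CPM in polyploid and 1243, 1202 and 1236 CPM in arrested cells at 8 h, after 1954, 1649 and 2257 CPM and 2047, 2056 and 2037 CPM at 0 h. The change in arrested cells was -0.74 (SE 0.19, adjusted p = 8.0e-04), or -0.15 (adjusted p = 0.54) on the TPM scale. The changes differed by 1.35 (SE 0.27, adjusted p = 5.0e-05), or 2.55-fold. The rise of *FAS1* in polyploid cells at 8 h (0.61, SE 0.19, adjusted p = 0.010) was not called without culture 2 (adjusted p = 0.11). On the deposited TPM scale the 8 h difference of *FAS1* was 0.55 (adjusted p = 0.093).

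By 16 h *ACC1* was at 2158, 2028 and 2347 CPM in polyploid cells (0.55, SE 0.15, adjusted p = 0.0028), above the 0 h libraries of these cells. In arrested cells it was at 1439.9, 845 and 1020.4 CPM (-0.47, SE 0.15, adjusted p = 0.0085), but the change was +0.29 (adjusted p = 0.15) on the deposited TPM scale and was not called without culture 2 or 3 (adjusted p of 0.19 and 0.080). *FAS1* was at 1131, 1098 and 1205 CPM in arrested cells at 16 h (-0.84, SE 0.19, adjusted p = 1.5e-04), or -0.04 (adjusted p = 0.86) on the TPM scale. *FAS2* (YPL231W, chromosome XVI, 108652 to 114315, plus strand) was at 1491, 1506 and 1479 CPM there, after 2242, 2256 and 2291 CPM (-0.60, SE 0.19, adjusted p = 0.0065), a direction that flipped to 0.19 (adjusted p = 0.42) on the TPM scale. The TPM values are not corrected for the make-up of the RNA, and on them the median of all genes rose by 0.84 in this comparison, against 0.10 by edgeR.

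The 16 h change in polyploid minus arrested cells was 1.02 (SE 0.22, adjusted p = 4.7e-04) for *ACC1* and 0.71 (SE 0.27, adjusted p = 0.046) for *FAS1*, or 0.66 (adjusted p = 0.059) and 0.31 (adjusted p = 0.45) on the TPM scale. The *FAS1* difference lost its call in each of the 6 fits that left out 1 culture (adjusted p from 0.051 to 0.19), and *FAS2* had a difference of 0.68 (SE 0.27, adjusted p = 0.059; adjusted p = 0.026 with culture as a block). In all, 6 of the 10 genes differed in their 16 h change between polyploid and arrested cells of the *mad1Δ bub2Δ* test (2 up, 4 down), against 23.3% of all genes, or 0 up and 5 down on the TPM scale. The changes of *ACC1* and *FAS1* were higher in polyploid cells, and those of *INO1* (-4.65, SE 0.49), *CHO1*, *CHO2* and *OPI3* were lower. In level at 16 h, *OPI3* averaged 324 CPM in polyploid and 197 CPM in arrested cells, and *CHO1* 163 and 123 CPM. The mean levels of *INO1* and *CHO2* were lower in polyploid cells.

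These 3 genes of fatty acid synthesis rose in arrested *cdc24-1 swe1Δ cdc20-1* cells at 8 h. *ACC1* was at 1149.8, 1256 and 1267 CPM after 848, 830.2 and 779 CPM (0.58, SE 0.15, adjusted p = 0.0014). *FAS1* and *FAS2* rose by 0.68 (SE 0.19, adjusted p = 0.0021) and 0.74 (SE 0.19, adjusted p = 0.0012) at the same time. At 16 h the changes were 0.14 for *ACC1*, -0.02 for *FAS1* and -0.05 for *FAS2*, with adjusted p of 0.46 to 0.93, whereas on the TPM scale they were 0.71, 0.46 and 0.50 and were called. In the library that goes against its label *FAS1* was at 1601 CPM, beside 832 and 625 CPM in the others, and without that library its 16 h change was -0.47 (adjusted p = 0.024). The 16 h change of *FAS2* was then -0.35 (adjusted p = 0.14). In polyploid cells *FAS2* rose by 0.71 (SE 0.19, adjusted p = 0.0032) at 8 h, to 2486, 2715 and 2054 CPM, but by 0.56 (adjusted p = 0.087) without culture 2. *ACC1* in cycling cells rose from 971, 754 and 992 CPM to 1192, 1243 and 1234 CPM (0.43, SE 0.15, adjusted p = 0.048), which was not called when any 1 culture was left out (adjusted p from 0.073 to 0.39).

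**Figure D5:**
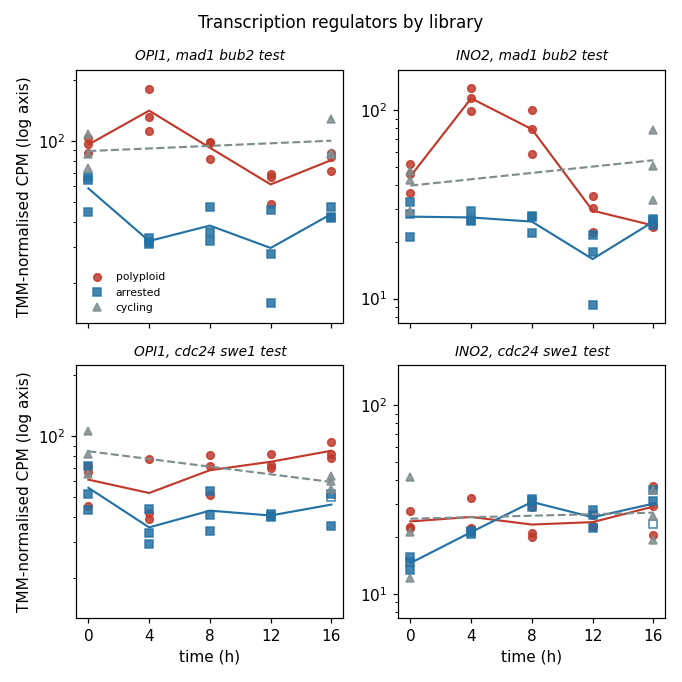
CPM on a log axis against time for *OPI1* and *INO2* in both tests, drawn as for the phospholipid genes. In the *mad1Δ bub2Δ* test the polyploid *INO2* libraries reach 116, 99.3 and 131 CPM at 4 h, while the arrested libraries stay at 29.1, 26.0 and 25.7 CPM.

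The regulators were among the less abundant RNAs. *INO2* (YDR123C, chromosome IV, 698554 to 699468, minus strand), the activator gene, rose 2.59-fold in polyploid *mad1Δ bub2Δ* cells at 4 h, from 51.7, 36.1 and 45.6 CPM to 116, 99.3 and 131 CPM (1.37, SE 0.27, adjusted p = 1.2e-04). It then declined to 24.0, 24.5 and 24.7 CPM at 16 h (-0.87, SE 0.27, adjusted p = 0.0076; adjusted p = 0.089 without culture 1, and -0.42 with adjusted p = 0.21 on the TPM scale). Arrested *MAD1 BUB2* cells, with 28.1, 21.1 and 32.4 CPM at 0 h, had 25.8, 26.3 and 24.7 CPM at 16 h (-0.09, SE 0.28, adjusted p = 0.80), or a called change of 0.70 on the TPM scale. While *INO1* rose 54.1-fold there, *INO2* was between 9.30 and 32.4 CPM in all 15 libraries. In arrested *cdc24-1 swe1Δ cdc20-1* cells *INO2* went from 14.7, 15.6 and 13.3 CPM to 35.4, 23.5 and 31.2 CPM (1.04, SE 0.28, adjusted p = 0.0015), where 23.5 CPM is the library that goes against its label, and 1.23 without it. In polyploid *cdc24-1 swe1Δ* cells it was within 20.1 to 37.3 CPM in all 15 libraries, with a 16 h change of 0.23 (adjusted p = 0.52), or a called 0.81 (adjusted p = 0.011) on the TPM scale. The 16 h change of *INO2* was lower in polyploid than in cycling *mad1Δ bub2Δ* cells by 1.32 (SE 0.38, adjusted p = 0.0042), or by 0.35 (adjusted p = 0.47) on the TPM scale, and than in arrested cells by 0.78 (adjusted p = 0.14), a difference called with culture as a block (adjusted p = 0.037).

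*OPI1* (YHL020C, chromosome VIII, 66242 to 67456, minus strand), the repressor gene, fell in arrested *MAD1 BUB2* cells at 4 h from 64.6, 44.5 and 66.3 CPM to 33.4, 31.9 and 31.2 CPM (-0.86, SE 0.25, adjusted p = 0.0040; adjusted p = 0.057 without culture 3, and -0.45 with adjusted p = 0.083 on the TPM scale). At 12 h it was at 27.7, 15.9 and 45.6 CPM (-0.95, SE 0.25, adjusted p = 9.8e-04), and at 16 h at 41.8, 47.3 and 42.1 CPM (-0.42, SE 0.24, adjusted p = 0.14). In polyploid *mad1Δ bub2Δ* cells it was at 97.1, 104 and 87.3 CPM at 0 h and 180.0, 112 and 132 CPM at 4 h (0.56, SE 0.24, adjusted p = 0.077). The changes at 4 h in polyploid and arrested cells differed by 1.42 (SE 0.34, adjusted p = 0.0012), or by 0.69 (adjusted p = 0.061) on the TPM scale. No 16 h change of *OPI1* was called in any of the 6 courses by the count fit, and that in polyploid *cdc24-1 swe1Δ* cells, 0.47 (adjusted p = 0.10), was 1.09 and called on the TPM scale.

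At 4 h, 6 of the 10 genes had changed in polyploid *mad1Δ bub2Δ* cells (5 up, 1 down), where 23.2% of all genes were called, and 2 had changed in arrested *MAD1 BUB2* cells (0 up, 2 down), against 38.5%. The second count was 1 without culture 1 or 3. Of the 10 genes 5 differed in their change between the 2 courses, against 26.1% of all genes in either direction. They were *ACC1*, *FAS1*, *INO1*, *OPI1* and *INO2*, all with the higher change in polyploid cells. The difference of *INO1* at 4 h (1.69, SE 0.51, adjusted p = 0.0095) was not called without arrested culture 1 (adjusted p = 0.085). On the TPM scale *ACC1* alone of these 5 was called (0.87, adjusted p = 0.0076). *CHO1* (-1.02) and *CHO2* (-1.01) were also called on that scale, with the lower change in polyploid cells. At 8 h the counts were 7 in polyploid cells (5 up, 2 down; 31.1% of all genes), 5 in arrested cells (1 up, 4 down; 54.3%) and 5 for the difference (3 up, 2 down; 37.0%). Leaving out polyploid culture 2 took the first of these counts from 7 to 3. On the TPM scale the calls at 8 h were 2 up and 3 down in polyploid cells, 2 up and 1 down in arrested cells and 1 up and 4 down for the difference, and those at 4 h were 4 up and 1 down in polyploid and 1 up and 0 down in arrested cells.

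At 4 h in the *cdc24-1 swe1Δ* test, 2 genes had changed in polyploid cells (*OLE1* up and *CHO1* down; 29.1% of all genes) and 6 in arrested cells (2 up, 4 down; 41.2%). The first count was 1 without culture 1, and the second was 3 without culture 1 or 3. The courses differed in 2 genes, *INO1* (1.59, SE 0.46, adjusted p = 0.021) and *CHO2* (0.87, SE 0.27, adjusted p = 0.030), against 7.92% of all genes. The *INO1* difference rested on polyploid culture 3, without which it was 0.60 (adjusted p = 0.48), and no gene was called without that culture or without arrested culture 3. The *INO1* call was also lost without arrested culture 1 (adjusted p = 0.12). That of *CHO2* was also lost without arrested or polyploid culture 2 (adjusted p of 0.18 and 0.10). On the TPM scale the differences were 1.18 (adjusted p = 0.22) for *INO1* and 0.79 (adjusted p = 0.32) for *CHO2*. At 8 h the counts were 5 in polyploid cells (4 up, 1 down; 32.0%), 7 in arrested cells (5 up, 2 down; 51.1%) and 5 for the difference (3 up, 2 down; 22.9%). Without polyploid culture 2 the first of these was 2 and without polyploid culture 1 it was 3, and the last was 3 without arrested culture 1. In TPM the calls in polyploid cells were 2 up and 1 down at 4 h and 6 up and 0 down at 8 h, and those in arrested cells were 5 up and 1 down at both times. The 4 h calls in polyploid cells were 3 up and 1 down by DESeq2 or without the library that goes against its label, and 2 up and 1 down with ribosomal RNA removed. For the 8 h difference between the courses, the changes of *INO1* (1.64, SE 0.46), *OPI3* (1.42, SE 0.41) and *CHO2* (1.12, SE 0.27) were higher in polyploid cells. Those of *OLE1* and *INO2* (-1.14, SE 0.39, adjusted p = 0.028) were lower. The *INO2* difference was lost in 5 of the 6 fits that left out 1 culture (adjusted p from 0.052 to 0.11), and that of *OPI3* without polyploid culture 2 (adjusted p = 0.086).

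Between the 2 arrested courses, 5 of the 10 genes differed in their 16 h change, against 24.4% of all genes. The change of *INO1* was higher in the nocodazole arrest, and the changes of *ACC1*, *FAS1*, *OLE1* and *INO2* were lower (-0.61, -0.82, -1.57 and -1.13). Without the library that goes against its label only 2 of these calls were left, and *ACC1*, *FAS1* and *OLE1* differed by -0.48, -0.36 and -0.82 (adjusted p of 0.11, 0.28 and 0.19).

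The study was designed around mean DNA content, which averaged 101878 AU (arbitrary fluorescence units) at 0 h and 441787 AU at 16 h in *mad1Δ bub2Δ* cells with nocodazole, and 108181 and 264282 AU in polyploid *cdc24-1 swe1Δ* cells. The slope of each gene with DNA content was fitted over the 36 libraries of a test and called at a Bonferroni-adjusted p under 0.05. In the *mad1Δ bub2Δ* test 0 of the 10 genes were called by edgeR, against 3.17% of all genes. At an unadjusted p under 0.05 there were 4, and DESeq2 called 1, *FAS2*. *ACC1*, *FAS2* and *FAS1* had slopes of 0.26 (SE 0.06), 0.21 (SE 0.05) and 0.17 (SE 0.06) log2 units per 100000 AU and passed a Benjamini-Hochberg threshold. With cell type or culture in the fit, or in polyploid cells alone, *CHO1* was called instead, with slopes of -0.55 to -0.56. With culture in the fit the slopes of *ACC1*, *FAS2* and *FAS1* were 0.01, -0.01 and -0.05 and were not called. Their rise with DNA content was thus not seen within cultures.

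In the *cdc24-1 swe1Δ* test 1 of the 10 genes was called, against 4.81% of all genes. It was *INO1*, with a slope of 0.87 log2 units per 100000 AU (SE 0.11, Bonferroni-adjusted p = 2.2e-05). The slope was 0.76 with cell type in the fit, 0.81 with culture as a block and 0.84 in polyploid cells alone, and was not called in any of these 3 fits (adjusted p of 1.0, 1.0 and 0.74). In the *mad1Δ bub2Δ* test the slope of *INO1* was 0.07 (SE 0.21), where the highest levels were those of arrested cells, whose DNA content averaged 97920.0 AU at 16 h. The slopes of the 2 tests were called different by edgeR or DESeq2 for 0 of the 10 genes, against 2.78% of all genes, with 4 at an unadjusted p under 0.05, and that of *INO1* differed by 0.80 (SE 0.31).

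A wider list of 46 genes of lipid synthesis was written from general knowledge and read beside all genes. In polyploid *mad1Δ bub2Δ* cells 3 of the 46 rose and 27 fell over 16 h (65.2% called), where 1409 of all 6148 genes rose and 1338 fell (44.7%), and the median log2 change was -0.58 against 0.03 for all genes. In arrested *MAD1 BUB2* cells 4 rose and 28 fell (69.6%, median -0.63), where 1961 of all genes rose and 1592 fell (57.8%, median 0.10). In cycling *mad1Δ bub2Δ* cells 3 rose and 19 fell (47.8%, median -0.20), where 1287 of all genes rose and 990 fell (37.0%, median 0.02).

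Of the list in polyploid *cdc24-1 swe1Δ* cells 7 rose and 16 fell (23 called, median -0.31), where 1632 of all genes rose and 1417 fell (49.6%, median 0.09). In arrested *cdc24-1 swe1Δ cdc20-1* cells 3 rose and 25 fell (60.9%, median -0.69), where 1602 of all genes rose and 1549 fell (51.3%, median 0.03), and without the library that goes against its label 3 rose and 29 fell (median -0.78). In cycling *cdc24-1 swe1Δ* cells 3 rose and 0 fell (6.52%, median 0.09), where 469 of all genes rose and 423 fell (14.5%, median -0.01). The calls of the list on the TPM scale were 5 up and 11 down in polyploid *mad1Δ bub2Δ* cells, 15 up and 6 down in arrested *MAD1 BUB2* cells, 1 up and 29 down in cycling *mad1Δ bub2Δ* cells, 15 up and 7 down in polyploid *cdc24-1 swe1Δ* cells and 11 up and 10 down in arrested *cdc24-1 swe1Δ cdc20-1* cells.

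Of the 6 genes of fatty acid elongation in the list, 6 fell in the polyploid cells of each test and in arrested *cdc24-1 swe1Δ cdc20-1* cells, with or without the library that goes against its label, and 5 fell in arrested *MAD1 BUB2* cells, beside the shares of all genes just given. On the TPM scale 4 and 5 fell in polyploid *mad1Δ bub2Δ* and *cdc24-1 swe1Δ* cells, 5 in arrested *cdc24-1 swe1Δ cdc20-1* cells and 3 in arrested *MAD1 BUB2* cells, where 1 rose. No test of the list or of this group was made.

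The list's largest falls over 16 h included those of *ARE2*, a sterol acyltransferase gene, of elongation genes and of *PSD1*, *HNM1* and *SLC1*. *PSD1* (-1.73) and *HNM1* (-1.71), described below, fell in polyploid *mad1Δ bub2Δ* cells. *SLC1*, a gene of phosphatidate synthesis, fell in arrested *cdc24-1 swe1Δ cdc20-1* cells (-1.80, all libraries included). *ARE2* fell by 2.22 in arrested *MAD1 BUB2* cells and by 1.74 in polyploid *mad1Δ bub2Δ* cells. *ELO2*, a fatty acid elongase gene, fell by 2.03 in the former and by 1.71 in polyploid *cdc24-1 swe1Δ* cells, and *IFA38*, the ketoreductase gene of elongation, fell by 1.73 in the latter and by 1.76 in the arrested cells of that test (-1.98 without the library that goes against its label). The rises in arrested cells included those of *FAA2*, an acyl-CoA synthetase gene of the peroxisome, by 1.25 (SE 0.18) in *MAD1 BUB2* and 1.22 (SE 0.18) in *cdc24-1 swe1Δ cdc20-1* cells (1.39 without that library).

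Other genes of the list also differed at 0 h between the *mad1Δ bub2Δ* cultures that were to become polyploid and the *MAD1 BUB2* cultures. In this comparison 9 of the 46 were higher and 2 lower (23.9% called), with a median of 0.01, where 326 of all genes were higher and 228 lower (9.01%), with a median of 0.02. The highest were *ITR1*, the main inositol transporter gene (1.44, SE 0.19), *HNM1*, the choline transporter gene (1.44, SE 0.20), and *PSD1*, a phosphatidylserine decarboxylase gene (1.37, SE 0.18), with adjusted p of 6.6e-07 or less. *ITR1* had 1854 to 2505 CPM in the 3 cultures that were to become polyploid and 743 to 847 CPM in the *MAD1 BUB2* cultures. It fell in cycling *mad1Δ bub2Δ* cells to 401 to 579 CPM (-1.47, SE 0.19), and in polyploid minus arrested cells its 16 h change was -1.35 (SE 0.26).

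*MGA2*, which encodes a membrane-bound activator of *OLE1*, and *FAA4*, an acyl-CoA synthetase gene, also rose in polyploid *mad1Δ bub2Δ* cells. *MGA2* rose by 1.00 (SE 0.17) and *FAA4* by 0.78 (SE 0.22; 0.50, adjusted p = 0.16, on the TPM scale) at 4 h, when *OLE1* rose by 1.57. At 8 h *FAA4* was at 846, 972 and 1090.2 CPM, in order of level, in polyploid cells and at 218, 225 and 270.2 CPM in arrested cells, a difference in change of 2.12 (SE 0.32, adjusted p = 2.8e-07). In the *cdc24-1 swe1Δ* test *FAA4* rose by 1.53 (SE 0.23) at 8 h in arrested cells and by 0.90 (SE 0.22) in polyploid cells. At 4 h in that test *MGA2* was not among the genes of the list called up in polyploid or arrested cells, although *OLE1* rose in both. In polyploid *mad1Δ bub2Δ* cells *MGA2* was still up at 16 h (0.53, SE 0.17), when *OLE1* had ended lower by the count fit. A link between the 2 genes was not tested.

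The patterns most like those of 3 members were sought over the means of the 24 conditions, as a description. Of genes outside the 10, *OLE1* had the highest correlations of log2 CPM with *IZH1* (Pearson r = 0.86), *FAA4* (0.81) and *FCY2* (0.80). *FAS1* was most like *SAM2* (0.83), *FOL1* (0.80) and *SAH1* (0.79), of which *SAM2* and *SAH1* act in the cycle of S-adenosylmethionine, the methyl donor of Cho2 and Opi3. *INO1* was most like *RIM8* (0.87), *YLR156W* (0.86) and *RNR3* (0.85), and *YLR156W* has near-identical copies, so its counts are uncertain. Within the 10 genes, *ACC1* and *FAS1* were the most alike (r = 0.90), while *FAS1* had an r of 0.28 with *CHO2* and 0.49 with *OPI3*. The conditions share cultures and strains, so these points are not independent.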

How the data were processed

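Poly(A) RNA of budding yeast was sequenced in 72 libraries of 18 cultures. The authors aligned reads with STAR and estimated gene counts with Salmon, through the nf-core/rnaseq pipeline on R64-1-1; tool versions and strand setting are not given in the sources used here. The deposited values are estimated counts rounded to whole numbers, not normalized, and log2(TPM + 1). The latter entered only an alternative, with limma 3.58.1. Counts were tested with edgeR 4.0.16 in R 4.3.3 (TMM normalization, filterByExpr, quasi-likelihood test); 6148 genes entered a fit of the 24 conditions, and p-values were adjusted by the Benjamini-Hochberg method at 0.05. Slopes with mean DNA content were fitted within each test over 6025 and 6028 genes and adjusted by Bonferroni. Mean DNA content per library was copied from the sample labels. Groups follow the labels. By the study's methods 1 culture gave all time points of a replicate, so fits with culture as a block were alternatives; deviations of libraries of the same culture had a median correlation of 0.0266 over 126 pairs, of which 28.6% exceeded 0.1. Other alternatives were DESeq2 1.42.0, other size factors, no filter, ribosomal RNA removed, 1 test alone and each culture left out. On simulated counts, 174 of 200 changed genes were recovered for the difference in 16 h change of the *mad1Δ bub2Δ* test (5911 genes).

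The 10 members and the lists were chosen with earlier results of these data known, and 5 comparisons were added after the values were seen. All members are named; of the wider list, up to 3 called genes per direction and comparison with the largest change are named. For *INO1*, *OLE1* and *FAS1* the 3 most correlated genes are named. CPM values use TMM factors from 0.620 to 1.37. Median depth was 6918124 counts. Promoter windows were read by coordinates from the RefSeq R64 genome and annotation. The promoter of 1 further member is not reported here.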

Additional observations from a re-analysis of the deposited data

Results flagged for a closer look

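Several changes differed between kinds of cells by a test of the difference itself, an interaction term in edgeR with Benjamini-Hochberg adjustment; values are log2 differences of changes. For polyploid minus arrested cells of the *mad1Δ bub2Δ* test over 16 h, they were 1.02 for *ACC1*, 0.71 for *FAS1*, -4.65 for *INO1*, -1.12 for *CHO1*, -0.84 for *CHO2* and -1.69 for *OPI3*. Over 8 h they were 1.85 for *ACC1*, 1.35 for *FAS1*, 1.66 for *OLE1*, -1.96 for *INO1* and -1.16 for *OPI3*. Over 4 h they were 1.50 for *ACC1*, 1.21 for *FAS1*, 1.69 for *INO1*, 1.42 for *OPI1* and 1.39 for *INO2*. The difference of *INO1* was thus above 0 at 4 h and below 0 at 8 and 16 h.

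In the *cdc24-1 swe1Δ* test the same contrast gave -1.43 for *OLE1* over 16 h. Over 8 h it gave -1.59 for *OLE1*, 1.64 for *INO1*, 1.12 for *CHO2*, 1.42 for *OPI3* and -1.14 for *INO2*, and over 4 h 1.59 for *INO1* and 0.87 for *CHO2*. For polyploid minus cycling cells over 16 h, the *mad1Δ bub2Δ* test gave -1.72 for *OLE1*, 2.64 for *INO1*, -0.93 for *CHO1* and -1.32 for *INO2*. The *cdc24-1 swe1Δ* test gave -0.75 for *FAS1*, -1.81 for *OLE1*, 2.44 for *INO1*, -1.23 for *CHO1* and 0.96 for *OPI1*. Between the arrested courses of the 2 tests, the differences were -0.61 for *ACC1*, -0.82 for *FAS1*, -1.57 for *OLE1*, 5.12 for *INO1* and -1.13 for *INO2*. Without the library that goes against its label, those of *ACC1*, *FAS1* and *OLE1* were -0.48, -0.36 and -0.82 (adjusted p of 0.11, 0.28 and 0.19). The 16 h difference of -1.43 for *OLE1* was then -0.66 (adjusted p = 0.34).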

How the results depend on the processing

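Of 777 refits of the 117 called values with another setting, 714 kept direction and call, 60 kept direction only and 3 changed sign; of 393 refits without 1 culture, 310 kept the call, 83 lost it and 0 changed sign. With a prior count of 0.5, 60 of 60 changes moved by less than the replicate spread. The 3 sign changes came with limma on the deposited TPM scale: *ACC1* (0.29) and *FAS2* (0.19) in arrested *MAD1 BUB2* cells over 16 h, and *CHO1* in polyploid minus cycling *mad1Δ bub2Δ* cells (0.00). That scale shifted the median of all genes by -0.76 to 0.80 between comparisons, and the other scalings by -0.05 to 0.06.

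Counts of members called that moved by over 1.5 times on the TPM scale are given next, with the edgeR count first. Smaller moves are not listed here, and directions on that scale are given above for the courses over 4, 8 and 16 h. In the *mad1Δ bub2Δ* test they went from 0 to 2 for the slope, 7 to 4 in polyploid and 7 to 3 in arrested cells over 16 h, 2 to 1 in arrested cells and 5 to 3 for the difference over 4 h, and 5 to 3 in arrested cells over 8 h. In the *cdc24-1 swe1Δ* test they went from 1 to 2 for the slope, 4 to 7 in polyploid, 3 to 7 in arrested and 2 to 0 in cycling cells, 1 to 0 for the 16 h difference and 2 to 0 for the 4 h difference. For arrested cells between tests the count went from 5 to 1. The *mad1Δ bub2Δ* slope count of 0 was 1 with DESeq2, with cell type, with time, with culture as a replicate block or in polyploid cells alone, and 3 with Benjamini-Hochberg adjustment; the *cdc24-1 swe1Δ* slope count of 1 was 0 with cell type, with the culture block or in polyploid cells alone, and 5 with Benjamini-Hochberg adjustment. The 2 calls in cycling *cdc24-1 swe1Δ* cells became 1 with other size factors, with no filter, with ribosomal RNA removed or with that test alone. The 16 h difference of that test went from 1 to 0 with the test alone. Without the library with *SWE1* counts it was 0, the 4 h count in polyploid cells was 4 (as with DESeq2) and the count for arrested cells between tests was 2. The causes of these moves were not tested.

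Without 1 culture at a time, the 16 h counts of the *mad1Δ bub2Δ* test ran from 4 to 7 in polyploid, 5 to 6 in arrested and 4 to 6 in cycling cells, 4 to 6 for the difference and 3 to 5 at 0 h. Those of the *cdc24-1 swe1Δ* test ran from 2 to 4, 2 to 3, 0 to 0, 0 to 1 and 1 to 1. The slope counts stayed at 0 and 1, and their difference at 0. Over 4 h they ran from 5 to 7, 1 to 2 and 4 to 5 (polyploid, arrested, difference) in the first test and 1 to 3, 3 to 6 and 0 to 2 in the second, and over 8 h from 3 to 7, 4 to 5 and 4 to 6, and 2 to 5, 7 to 7 and 3 to 4. With culture as a block over 16 h, *FAS1* was also called in cycling *mad1Δ bub2Δ* (0.42) and polyploid *cdc24-1 swe1Δ* cells (-0.39), and with the replicate number as a block at 0 h 6 and 1 members were called. The number does not pair cultures of different strains.

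Each group had 3 cultures, and the RNA was measured in bulk relative to total RNA, so amounts per cell are not known. In each test, polyploid and arrested cells differ in strain but share drug treatment and temperature. Polyploid and cycling cells share the strain. They differ in drug in the nocodazole test and in temperature in the other test. Effects of these differences cannot be told apart from those of the kind of cell. *INO1* in arrested *MAD1 BUB2* cells began at 5.66 to 9.01 CPM over 0 and 4 h, where counts are lowest.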
